A study of Drosophila melanogaster with 20 samples.

Results

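Serotonin is made in a small set of neurons of the fly brain and acts on several receptors that sit on many other cells. The 7 genes described here cover its synthesis, its reuptake and its reception: Trhn, SerT, 5-HT1A, 5-HT1B, 5-HT2A, 5-HT2B and 5-HT7. They were taken by name, with earlier results of these data known, from the 17558 genes of a count table of adult Drosophila melanogaster heads. All 7 were found and all 7 had enough reads to be tested.

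The heads came from flies that lacked 1 or both of a pair of related neuronal RNA-binding proteins, FNE and RBP9, which belong to the ELAV/Hu family and act on the processing of neuronal transcripts. Total RNA, depleted of ribosomal RNA, was sequenced from untreated flies of both sexes, 1 day after eclosion, in 5 libraries for each of 4 genotypes. Wild type was w1118. Δfne flies were fneΔ/fneKOZ2 females together with fneΔ or fneKOZ2 males. Δrbp9 flies of either sex carried rbp9P2690 over the deficiency Df(2L)ED206, and ΔfneΔrbp9 flies carried both sets of alleles. A deficiency removes neighbouring genes as well, but none of the 7 genes lies on chromosome arm 2L. The transcript of white (w), the gene that w1118 lacks, was at a library-size-scaled count (CPM, the count per 1e6 counts of the library) of 0 to 0.436 in wild type and of 95.1 to 418 in the mutants, so the losses of FNE and RBP9 cannot be told apart from this difference in genetic background.

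Serotonin is made from tryptophan in 2 steps. Trhn, the neuronal tryptophan hydroxylase, carries out the rate-limiting step, and the decarboxylase Ddc the next. SerT, a plasma membrane transporter, takes released serotonin back into the neuron that made it. The 5 receptors are G-protein-coupled: 5-HT1A and 5-HT1B couple to inhibitory G proteins that lower cAMP, 5-HT2A and 5-HT2B belong to the class that signals through phospholipase C and calcium, and 5-HT7 raises cAMP. In flies the system is known for its part in sleep, feeding, aggression, learning and circadian behaviour.

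Total counts were 10289950 to 25325636 per library. The targeted genes matched the labels: fne averaged 194 ± 13.4 CPM in wild type, 86.7 ± 9.11 in Δfne, 211 ± 9.32 in Δrbp9 and 88.1 ± 5.12 in ΔfneΔrbp9 (SD, n = 5 each), and Rbp9 averaged 482 ± 29.4, 598 ± 27.7, 18.9 ± 1.52 and 18.3 ± 1.41 CPM in the same order. The summed level of 7 neuronal marker genes overlapped between all genotypes (4385 to 4884 CPM in wild type, 4280 to 4974 in Δfne, 4140 to 4592 in Δrbp9 and 4299 to 4553 in ΔfneΔrbp9). Of these 7 genes, Syt1 was higher (log2 fold change 0.15, adjusted p = 0.00667, edgeR) and futsch lower (-0.29, adjusted p = 0.000671) in ΔfneΔrbp9. The sum of 6 glial markers overlapped wild type in each mutant, but it is carried by the abundant nrv2 and Eaat1. In ΔfneΔrbp9, 5 of the 6 were below wild type and 3 passed the adjusted p: repo (-0.27, adjusted p = 0.000373), moody (-0.31, adjusted p = 5.15e-05) and alrm (-0.18, adjusted p = 0.00282). None of the neuronal or glial markers was at 0 in any library. Of 4 muscle genes, Mhc alone was called, lower in ΔfneΔrbp9 (-0.58, adjusted p = 2.59e-07) and in Δrbp9 (-0.51, adjusted p = 1.61e-06). In ΔfneΔrbp9, Tm2 and up were at 105% and 99.4% of wild type. Act88F, which varied widely in wild type (17.2 to 509 CPM), was at 31.0% there (adjusted p = 0.0821, edgeR). The muscle sum, 6901 to 8068 CPM against 9454 to 12106 CPM, follows Mhc. The sum of 4 photoreceptor genes was lower in Δrbp9 (13636 to 14228 CPM) than in wild type (15121 to 17039 CPM), with trp called (-0.50, adjusted p = 9.7e-09). In ΔfneΔrbp9, trp was lower as well (-0.41, adjusted p = 8.6e-08, edgeR) but not called. Of 3 fat body genes, to was called lower in ΔfneΔrbp9 (-0.81, adjusted p = 0.00295), with overlapping libraries, and the fat body sums overlapped (2812 to 8630 CPM in wild type, 2446 to 4192 in ΔfneΔrbp9). The log2 ratio of male roX RNA to female yolk protein RNA had a range of -3.89 to -0.93 over the wild-type libraries and of -3.69 to -3.10 over those of Δrbp9. It was -2.74 to -1.76 for Δfne, and ΔfneΔrbp9 gave -2.89 to -2.17. The Δrbp9 libraries thus stood below those of the other 2 mutants in this ratio. The part of these markers in the results below was not tested. In RNA from whole heads, fewer cells of a type and less RNA per cell cannot be told apart.

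Counts were compared with edgeR's quasi-likelihood F-test in 1 fit over all 20 libraries, with Benjamini-Hochberg adjustment over the 10560 genes tested. A gene is called changed where its adjusted p is under 0.01 and its log2 fold change is larger than 0.5 in size, which are the study's cutoffs. Standard errors (SE) are given with the main log2 fold changes. The 3 comparisons with wild type share the same 5 wild-type libraries. In those, replicate 5 held the highest level for 6 of the 7 genes, and results that move without it are given both ways.

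Per kilobase of exon, the 2A receptor was by far the most abundant of the 7 transcripts in wild-type heads. The length-scaled level was 31.2 ± 3.81 CPM per kb for 5-HT2A (SD, n = 5), 14.8 ± 1.24 for 5-HT1A, 14.1 ± 0.905 for SerT, 7.06 ± 0.571 for Trhn, 5.82 ± 0.335 for 5-HT7, 5.70 ± 0.631 for 5-HT1B and 5.44 ± 0.210 for 5-HT2B. The library ranges of 5-HT1A and SerT overlapped, as did those of 5-HT7, 5-HT1B and 5-HT2B, so the order within each of these sets is not resolved. Trhn stood above 5-HT7 without overlap (lowest 6.64 against highest 6.25 CPM per kb).

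**Figure D1:**
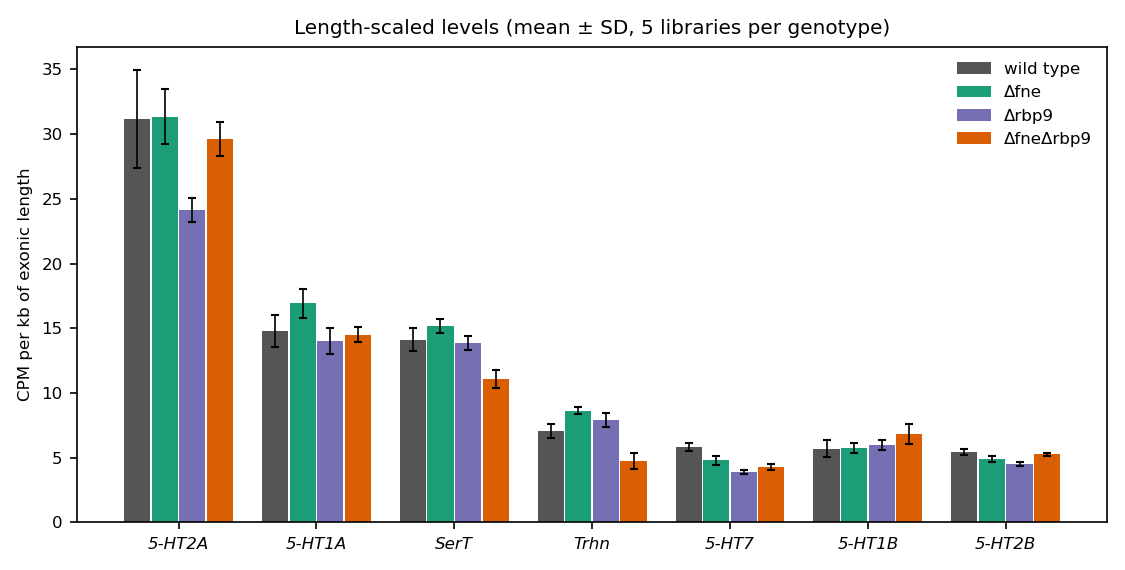
Length-scaled level of the 7 serotonin genes (y axis, CPM per kb of exonic length), with 1 bar per genotype giving the mean of 5 libraries and error bars of 1 SD. In ΔfneΔrbp9 the SerT bar (11.1) stands below the 5-HT1A bar (14.5), and the Trhn bar (4.76) is no longer above those of 5-HT1B (6.85) and 5-HT2B (5.26).

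The order shifted in the double mutant. SerT was at 10.1 to 12.0 CPM per kb in ΔfneΔrbp9, under the 13.7 to 15.0 CPM per kb of 5-HT1A in the same libraries. Trhn came to 4.76 ± 0.640 CPM per kb there, with a range (4.19 to 5.75) that overlapped those of 5-HT2B (5.14 to 5.47) and 5-HT7 (3.92 to 4.52). The level of Trhn relative to SerT, both per kb, averaged 0.50 ± 0.0276 in wild type, 0.569 ± 0.0215 in Δfne, 0.572 ± 0.0445 in Δrbp9 and 0.430 ± 0.0536 in ΔfneΔrbp9 (SD, n = 5 each). The ΔfneΔrbp9 range of this ratio, 0.372 to 0.518, overlapped that of wild type, 0.459 to 0.528.

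The 2 genes that mark the serotonin neurons themselves, Trhn and SerT, were lowest when both proteins were missing. Against wild type only Trhn was called lower there, and neither gene was called in a single mutant. Trhn fell to 67.5% of its wild-type level in ΔfneΔrbp9, and SerT was at 78.3% there. In Δfne and Δrbp9 the mean of Trhn was above that of wild type. In the test of the interaction, which asks whether the double mutant departs from the sum of the single effects, Trhn was called and SerT passed the adjusted p without reaching the fold change cutoff.

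**Figure D2:**
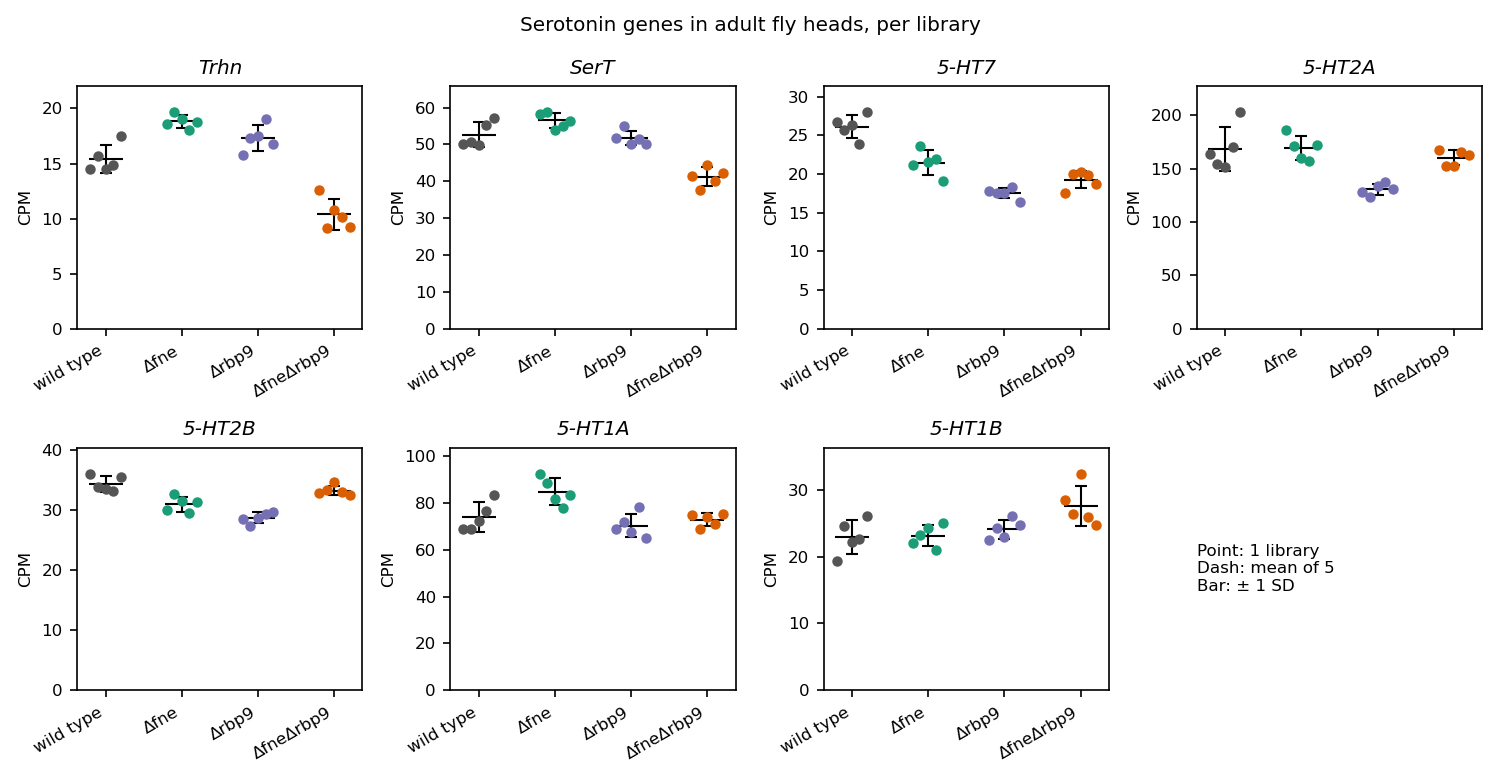
Level of each serotonin gene (y axis, CPM) in every library of the 4 genotypes, where a point is 1 library, a dash the mean of 5 and a bar 1 SD. All 5 ΔfneΔrbp9 libraries lie below all others for Trhn (9.15 to 12.6 CPM) and SerT (37.6 to 44.6 CPM), while for 5-HT7 the 3 mutant genotypes all lie below wild type.

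Trhn (FBgn0035187) lies on chromosome arm 3L, 1190384 to 1193173, minus strand (dm6), with 1 annotated transcript and 2183 bp of exon. Its level was 14.5, 15.7, 14.5, 14.9 and 17.5 CPM in the wild-type libraries, 18.6, 19.7, 19.03, 18.1 and 18.8 CPM in Δfne, and 15.8, 17.3, 17.5, 19.1 and 16.8 CPM in Δrbp9. In ΔfneΔrbp9 it was 12.6, 9.15, 10.8, 10.2 and 9.24 CPM, from 104 to 217 counts per library. The ΔfneΔrbp9 libraries were all below those of the other 3 genotypes, and the Δfne libraries were all above wild type. Against wild type, Trhn in ΔfneΔrbp9 had a log2 fold change of -0.57 (SE 0.0774, adjusted p = 8.04e-06, edgeR), and it stayed called with any single library left out (-0.65 to -0.51). In Δfne the Trhn log2 fold change was 0.29 (SE 0.0737, adjusted p = 0.00549), under the fold change cutoff, and this adjusted p rose above 0.01 without wild-type replicate 1, 2, 3 or 4 or without Δfne replicate 2, 3 or 5 (0.0102 to 0.0167). In Δrbp9 the Trhn log2 fold change was 0.17 (SE 0.0743, adjusted p = 0.0899).

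Trhn was also lower in the double mutant than in each single mutant. Its log2 fold change was -0.86 (SE 0.0767, adjusted p = 5.37e-08, edgeR) against Δfne and -0.73 (SE 0.0772, adjusted p = 8.41e-07) against Δrbp9, both called. Among all tested genes, 1.26% and 1.16% had a smaller p in these comparisons. The Trhn difference between the single mutants did not pass the test (log2 fold change -0.12 for Δrbp9 against Δfne, adjusted p = 0.216). The Trhn interaction term was -1.02 on the log2 scale (SE 0.107, adjusted p = 6.29e-07), called with any single library left out (-1.11 to -0.98). Trhn shares 89 bp of exon with CG13912 on the opposite strand. The libraries were stranded, and CG13912 was at log2 fold changes of 0.10, -0.16 and -0.01 in ΔfneΔrbp9, Δfne and Δrbp9 (adjusted p = 0.602, 0.431 and 0.981).

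SerT (FBgn0010414) lies on arm 2R, 24404595 to 24411074, minus strand, with 3 transcripts and 3725 bp of exon. Its level was 50.1, 50.6, 50.0, 55.4 and 57.1 CPM in wild type, 58.2, 58.8, 53.9, 55.1 and 56.4 CPM in Δfne, 51.8, 54.9, 50.2, 51.4 and 50.1 CPM in Δrbp9, and 41.4, 37.6, 44.6, 40.2 and 42.3 CPM in ΔfneΔrbp9. All ΔfneΔrbp9 libraries were below every library of the other genotypes, which overlapped with one another. Relative to wild type, the SerT log2 fold change came to -0.35 (SE 0.0487, adjusted p = 9.77e-06, edgeR) in ΔfneΔrbp9, 0.10 (SE 0.0479, adjusted p = 0.115) in Δfne and -0.03 (SE 0.0481, adjusted p = 0.725) in Δrbp9. The double mutant differed from both single mutants in SerT, by -0.45 against Δfne (SE 0.0486, adjusted p = 5.46e-07) and -0.33 against Δrbp9 (SE 0.0488, adjusted p = 5.72e-05). The SerT interaction term was -0.43 (SE 0.0684, adjusted p = 9.25e-05). None of these SerT differences reached the fold change cutoff. The glial markers repo and moody were also below wild type in every ΔfneΔrbp9 library. The Δfne libraries of repo were below wild type too (60.5 to 68.8 against 70.0 to 78.1 CPM). In ΔfneΔrbp9 repo, alrm and Gat were at their lowest, at 83.1%, 88.6% and 94.6% of wild type. By contrast, moody and Eaat1 were lowest in Δrbp9, at 71.3% and 87.4% of wild type. They were at 80.8% and 91.3% in ΔfneΔrbp9, where nrv2 was at 103%. Against Δfne, all 6 glial markers were lower in the double mutant. Of these, 1 passed the adjusted p (19.0% of all genes) and 4 did not overlap (22.0%). The part of the glial markers in the Trhn and SerT differences was not tested.

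Among the receptors, 5-HT7 had the most general difference: it was lower than wild type in all 3 mutants, and lowest in Δrbp9. 5-HT2A and 5-HT2B were lower in Δrbp9 but near wild type in the double mutant. 5-HT1A was higher in Δfne than in the double mutant and in Δrbp9, and 5-HT1B was highest in the double mutant. 5-HT7 in Δrbp9 was the only receptor call in a comparison with wild type.

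5-HT7 (FBgn0004573), the receptor that raises cAMP, lies on arm 3R, 30968236 to 31016875, minus strand, with 2 transcripts and 4486 bp of exon. Its level was 26.7, 25.6, 26.3, 23.9 and 28.0 CPM in wild type, 21.2, 23.6, 21.5, 21.9 and 19.1 CPM in Δfne, 17.8, 17.5, 17.6, 18.3 and 16.4 CPM in Δrbp9, and 17.6, 20.02, 20.3, 19.9 and 18.7 CPM in ΔfneΔrbp9. Every mutant library was below every wild-type library, and the Δrbp9 libraries were also below all Δfne libraries. 5-HT7 fell in Δrbp9 by 0.58 on the log2 scale (SE 0.0555, adjusted p = 1.29e-07, edgeR), a call that held with any single library left out (-0.61 to -0.54). The 5-HT7 log2 fold change was -0.28 (SE 0.0546, adjusted p = 0.000485) in Δfne and -0.44 (SE 0.0556, adjusted p = 3.26e-06) in ΔfneΔrbp9, both under the cutoff. The 5-HT7 deficit in the double mutant was smaller than the sum of the single effects, with an interaction term of 0.42 (SE 0.0788, adjusted p = 0.000461). Against Δrbp9, the log2 fold change of 5-HT7 in the double mutant was 0.14 (adjusted p = 0.0803).

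5-HT2A (FBgn0087012), a receptor of the phospholipase C class, lies on arm 3R, 4612870 to 4633304, plus strand, with 5 transcripts and 5410 bp of exon. It was at 164, 155, 152, 170 and 203 CPM in wild type, 186, 171, 160, 157 and 172 CPM in Δfne, 128, 123, 134, 137 and 131 CPM in Δrbp9, and 167, 153, 152, 166 and 163 CPM in ΔfneΔrbp9. The Δrbp9 libraries lay below all others, and the remaining genotypes overlapped. The summed photoreceptor markers were also below wild type in Δrbp9 and not in ΔfneΔrbp9 (15594 to 16562 CPM). This sum is carried by the abundant ninaE. In Δrbp9 ninaE, ninaC, trp and inaD were at 88.5%, 88.0%, 70.6% and 97.9% of wild type. In ΔfneΔrbp9 the same genes were at 104%, 100%, 75.1% and 105%. The part of these markers in this 5-HT2A difference was not tested. The 5-HT2A log2 fold change in Δrbp9 was -0.37 against wild type (SE 0.0648, adjusted p = 0.000186, edgeR), or -0.28 without wild-type replicate 5, and -0.38 against Δfne (SE 0.0647, adjusted p = 0.000166). In ΔfneΔrbp9 it was -0.07 (adjusted p = 0.395) and in Δfne 0.01 (adjusted p = 0.956) against wild type. The double mutant was above Δrbp9 by 0.29 (SE 0.0649, adjusted p = 0.00226), with an adjusted p of 0.0107 without ΔfneΔrbp9 replicate 1, while the 5-HT2A interaction term was 0.29 (SE 0.0914, adjusted p = 0.0246).

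5-HT2B (FBgn0261929), of the same class, lies on arm 3R, 8578205 to 8629996, plus strand, with 3 transcripts and 6333 bp of exon. It was at 36.1, 33.8, 33.5, 33.1 and 35.6 CPM in wild type, 30.01, 32.7, 31.5, 29.6 and 31.3 CPM in Δfne, 28.5, 27.3, 28.7, 29.4 and 29.8 CPM in Δrbp9, and 32.8, 33.4, 34.6, 33.0 and 32.6 CPM in ΔfneΔrbp9. Both single mutants were below wild type in every library, and the double mutant overlapped wild type. Relative to wild type, the 5-HT2B log2 fold change came to -0.15 (SE 0.0369, adjusted p = 0.00383, edgeR) in Δfne, -0.26 (SE 0.0371, adjusted p = 1.83e-05) in Δrbp9 and -0.05 (adjusted p = 0.321) in ΔfneΔrbp9. The Δfne value lost its adjusted p below 0.01 without wild-type replicate 1 (0.0147) or replicate 5 (0.0115), and without Δfne replicate 1 (0.0115) or replicate 4 (0.0138). The double mutant stood above Δrbp9 by 0.21 (SE 0.0374, adjusted p = 0.000306), and the 5-HT2B interaction term was 0.36 (SE 0.0526, adjusted p = 3.34e-05). For 5-HT2A, 5-HT2B, 5-HT7 and 5-HT1A alike, the part of the lower roX to yolk ratio of Δrbp9 in its differences from the other mutants was not tested.

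5-HT1A (FBgn0004168) and 5-HT1B (FBgn0263116), the receptors that lower cAMP, are neighbours on arm 2R, 34.5 kb apart and on opposite strands. 5-HT1A spans 19067155 to 19121958 on the plus strand, with 2 transcripts and 5019 bp of exon. Its level was 68.7, 68.9, 72.5, 76.8 and 83.6 CPM in wild type, 92.7, 88.7, 81.6, 78.1 and 83.4 CPM in Δfne, 69.1, 71.8, 67.8, 78.3 and 65.1 CPM in Δrbp9, and 74.8, 68.8, 74.0, 71.2 and 75.5 CPM in ΔfneΔrbp9. The Δfne libraries were all above those of the double mutant but overlapped wild type, by way of wild-type replicate 5. The 5-HT1A log2 fold change in Δfne was 0.20 (SE 0.059, adjusted p = 0.0163, edgeR), and 0.25 (adjusted p = 0.00197) without wild-type replicate 5. With other single libraries left out, this adjusted p went up to 0.0497. In Δrbp9 the 5-HT1A log2 fold change was -0.07 (adjusted p = 0.358) and in ΔfneΔrbp9 -0.02 (adjusted p = 0.794). Against Δfne, 5-HT1A was at -0.27 in Δrbp9 (SE 0.0592, adjusted p = 0.00163) and at -0.22 in the double mutant (SE 0.0593, adjusted p = 0.00825). The last of these was close to the threshold, with adjusted p between 0.00312 and 0.0269 as single libraries were left out. The 5-HT1A interaction term was -0.15 (adjusted p = 0.216).

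5-HT1B spans 19022325 to 19032642 on the minus strand, with 3 transcripts and 4026 bp of exon. It was at 19.4, 24.6, 22.2, 22.6 and 26.0 CPM in wild type, 22.1, 23.3, 24.2, 21.0 and 25.0 CPM in Δfne, 22.4, 24.4, 22.9, 26.0 and 24.8 CPM in Δrbp9, and 28.5, 26.4, 32.5, 25.9 and 24.7 CPM in ΔfneΔrbp9. The genotypes overlapped throughout, although the double mutant held the highest library. The 5-HT1B log2 fold change was 0.27 in ΔfneΔrbp9 (SE 0.0791, adjusted p = 0.0121, edgeR), 0.01 in Δfne (adjusted p = 0.942) and 0.07 in Δrbp9 (adjusted p = 0.529) against wild type. The ΔfneΔrbp9 value had an adjusted p of 0.00317 without wild-type replicate 5 and of 0.00715 without ΔfneΔrbp9 replicate 5. With other single libraries left out, this adjusted p went up to 0.0462. In the alternative fits it was 0.00735 (DESeq2) to 0.0557. The 5-HT1B interaction term was 0.19 (adjusted p = 0.235).

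**Figure D3:**
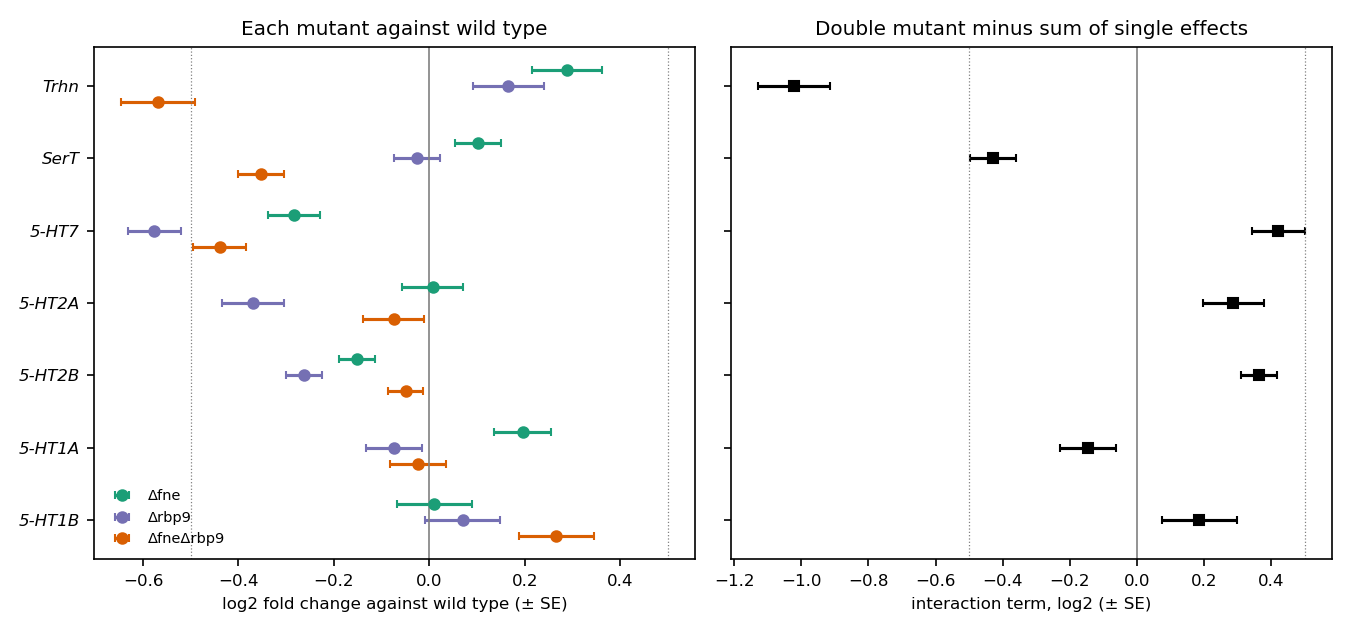
Log2 fold change of each serotonin gene against wild type in the 3 mutants (left) and interaction term, the double mutant minus the sum of the single effects (right), with bars of 1 SE and dotted lines at the fold change cutoff of 0.5. Trhn in ΔfneΔrbp9 (-0.57) and 5-HT7 in Δrbp9 (-0.58) lie beyond the cutoff on the left, and only Trhn (-1.02) does on the right.

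Counted over the 7 genes, calls were few. In ΔfneΔrbp9 against wild type 1 of 7 was called (Trhn, lower), against 9.55% of all tested genes, and 3 of 7 had an adjusted p below 0.01 whatever the size (Trhn, SerT and 5-HT7), against 24.9%. The same 3 genes had libraries that did not overlap between the genotypes, against 23.1% of all genes. In Δrbp9 1 of 7 was called (5-HT7, lower), against 8.07%, and 3 of 7 passed the adjusted p (5-HT7, 5-HT2A and 5-HT2B), against 22.9%, and these 3 did not overlap, against 21.2%. In Δfne edgeR called 0 of 7, against 8.06%, with 3 of 7 past the adjusted p (Trhn, 5-HT7 and 5-HT2B), against 19.1%, and these 3 did not overlap, against 17.5%. For that comparison 5 of 7 had an unadjusted p below 0.05, and DESeq2 also called 0. The median log2 fold change over the 7 genes was -0.07 in ΔfneΔrbp9, 0.01 in Δfne and -0.07 in Δrbp9, beside medians over all tested genes of -0.00051, 0.0065 and 0.0022.

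Between the mutants, Trhn was the 1 call of 7 both in ΔfneΔrbp9 against Δfne, where 6.82% of all genes were called, and in ΔfneΔrbp9 against Δrbp9, where 4.66% were. An adjusted p below 0.01 was reached by 3 of 7 in the former (19.0% of all genes) and by 4 of 7 in the latter (15.1%), and by 3 of 7 in Δrbp9 against Δfne (20.6%). Libraries did not overlap for 3 of 7 (22.0%), 4 of 7 (22.1%) and 2 of 7 (23.6%) in the same order. In Δrbp9 against Δfne edgeR called 0 of 7, against 8.16% of all genes, with 5 of 7 at an unadjusted p below 0.05 and 0 called by DESeq2. The interaction was called for 1 of 7 (Trhn), against 8.97% of all genes. It passed the adjusted p for 4 of 7, against 16.5%: below 0 for Trhn and SerT, and above 0 for 5-HT7 and 5-HT2B.

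Summed over the receptors, the level was lowest in Δrbp9. The sum of the 5 was 62.9 ± 5.58 CPM per kb in wild type, 63.7 ± 3.29 in Δfne, 52.6 ± 1.99 in Δrbp9 and 60.5 ± 1.39 in ΔfneΔrbp9 (SD, n = 5 each). All Δrbp9 sums (51.4 to 56.1) were below all wild-type sums (59.2 to 72.5). 5-HT2A made up 49.5% of this sum in wild type, 49.2% in Δfne, 45.9% in Δrbp9 and 48.9% in ΔfneΔrbp9. The share of 5-HT7 was 9.29 ± 0.695% in wild type and 7.53 ± 0.677%, 7.43 ± 0.251% and 7.11 ± 0.523% in the same order of mutants, each below wild type in every library. The share of 5-HT1B was 9.08 ± 0.834% in wild type, 9.04 ± 0.704% in Δfne, 11.4 ± 0.516% in Δrbp9 and 11.3 ± 1.18% in ΔfneΔrbp9. The share of 5-HT1A was 23.5 ± 0.808% in wild type, 26.5 ± 0.518% in Δfne, 26.7 ± 1.21% in Δrbp9 and 24.0 ± 0.598% in ΔfneΔrbp9. In this share the libraries of both single mutants were all above wild type. A share also depends on the levels of the other receptors. In Δrbp9 the levels of 5-HT1A (log2 fold change -0.07, adjusted p = 0.358, edgeR) and 5-HT1B (0.07, adjusted p = 0.529) were near wild type. There 5-HT2A, 5-HT2B and 5-HT7 were lower. In Δfne the level of 5-HT1A was at 0.20 (adjusted p = 0.0163, edgeR).

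Other genes of serotonin synthesis, packaging and breakdown were examined as a list, chosen like the 7 genes with earlier results of these data known. Of its 9 genes measured, 3 were called lower and 0 higher in ΔfneΔrbp9, 2 lower and 1 higher in Δfne, and 3 lower and 1 higher in Δrbp9. Over all tested genes, 4.89% were called lower and 4.66% higher in ΔfneΔrbp9, 3.91% and 4.15% in Δfne, and 4.61% and 3.46% in Δrbp9. The genes called were Pu, pr, Dhpr, Hn and AANATL2. Pu, the GTP cyclohydrolase at the head of the pterin pathway, which supplies the cofactor of tryptophan hydroxylase as well as red eye pigment, averaged 1509 ± 230 CPM in wild type, 1207 ± 138 in Δfne, 817 ± 148 in Δrbp9 and 829 ± 57.9 in ΔfneΔrbp9 (SD, n = 5 each). It fell by 0.89 on the log2 scale in Δrbp9 (SE 0.113, adjusted p = 5.07e-06, edgeR) and by 0.86 in ΔfneΔrbp9 (SE 0.113, adjusted p = 4.84e-06). The next enzyme, pr, fell in Δfne by 0.65 (SE 0.117, adjusted p = 0.000238), in Δrbp9 by 1.09 (SE 0.118, adjusted p = 6.14e-07) and in ΔfneΔrbp9 by 1.08 (SE 0.118, adjusted p = 4.97e-07). Dhpr, which regenerates the cofactor, was called higher in Δrbp9 at 0.50 (SE 0.0795, adjusted p = 6.52e-05), just past the cutoff. DESeq2, with a Dhpr log2 fold change of 0.498 there, did not call it, and so called 3 of the 9 genes in Δrbp9 in place of 4.

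Hn, the phenylalanine hydroxylase that also acts on tryptophan outside neurons, fell by 0.54 in Δfne (SE 0.081, adjusted p = 3.13e-05, edgeR). The log2 fold change of Hn was -0.45 (SE 0.0809, adjusted p = 0.000236) in Δrbp9 and -0.15 (adjusted p = 0.153) in ΔfneΔrbp9. Ddc did not pass the test in any mutant against wild type. AANATL2, an arylalkylamine N-acetyltransferase-like enzyme, was at 15.6 ± 1.45 CPM in wild type, 27.5 ± 2.35 in Δfne, 7.61 ± 0.698 in Δrbp9 and 7.88 ± 0.762 in ΔfneΔrbp9 (SD, n = 5 each). It rose by 0.83 in Δfne (SE 0.077, adjusted p = 7.21e-08) and fell by 1.03 in Δrbp9 (SE 0.0831, adjusted p = 1.23e-08) and by 0.99 in ΔfneΔrbp9 (SE 0.0838, adjusted p = 1.39e-08).

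Vmat, the transporter that loads serotonin, dopamine and other monoamines into vesicles, was lowest in the double mutant, as Trhn and SerT were. It averaged 370 ± 6.41 CPM in wild type, 330 ± 18.6 in Δfne, 354 ± 6.02 in Δrbp9 and 272 ± 5.77 in ΔfneΔrbp9 (SD, n = 5 each), and the ΔfneΔrbp9 libraries (264 to 279 CPM) were below all others. The Vmat log2 fold change in ΔfneΔrbp9 was -0.44 (SE 0.0335, adjusted p = 2.57e-09, edgeR), under the fold change cutoff, and its interaction term was -0.21 (SE 0.0473, adjusted p = 0.00204). Unlike Trhn and SerT, Vmat was also below wild type in every Δfne library, at -0.17 (SE 0.0334, adjusted p = 0.000697, edgeR). The Δrbp9 libraries of Vmat were below wild type too, by a narrow margin (highest 361.8 against lowest 361.9 CPM).

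**Figure D4:**
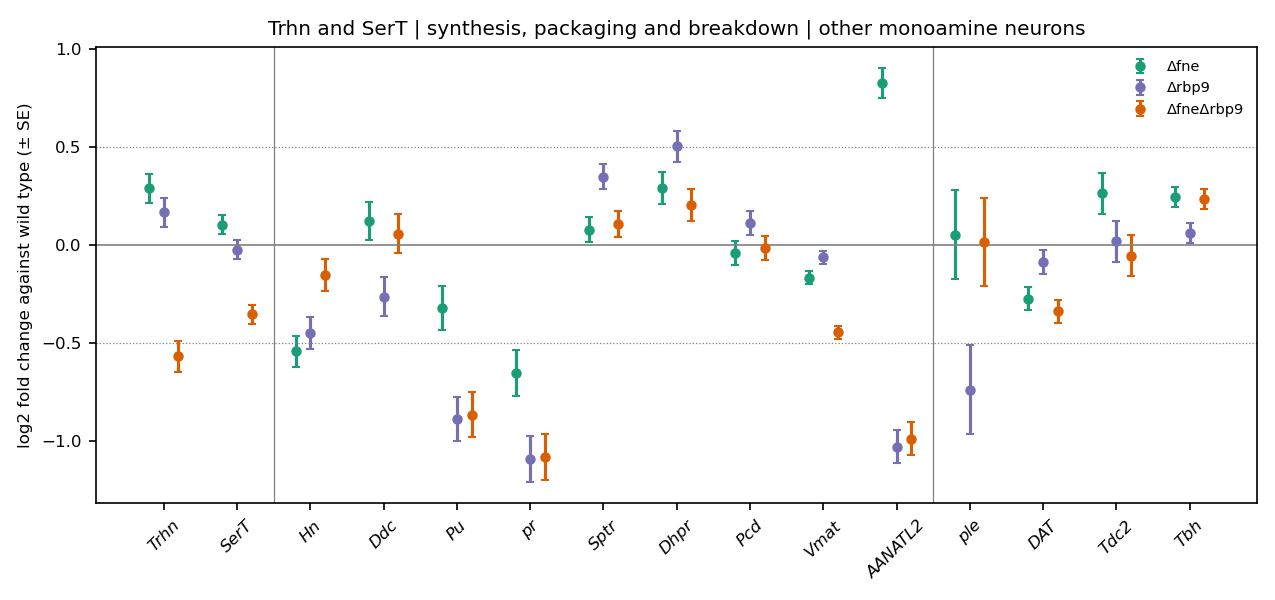
Log2 fold change against wild type (y axis, bars of 1 SE) in the 3 mutants for Trhn and SerT, for 9 genes of serotonin synthesis, packaging and breakdown, and for 4 genes of other monoamine neurons, with dotted lines at the cutoff of 0.5. Trhn, SerT and Vmat are lowest in ΔfneΔrbp9, whereas Pu, pr and AANATL2 are about as low in Δrbp9 as in ΔfneΔrbp9.

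Genes of other monoamine neurons gave no calls: edgeR and DESeq2 each called 0 of 4 in all 3 mutants against wild type, with 2, 3 and 1 of 4 at an unadjusted p below 0.05 in ΔfneΔrbp9, Δfne and Δrbp9. Over all tested genes the called shares were 9.55%, 8.06% and 8.07% in the same order, so few calls among so few genes are near the background. DAT, the dopamine reuptake transporter, was at -0.34 in ΔfneΔrbp9 (SE 0.0603, adjusted p = 0.000167, edgeR) and at -0.27 in Δfne (SE 0.0598, adjusted p = 0.0016), with an interaction term of 0.02 (adjusted p = 0.889). Tbh, the hydroxylase that makes octopamine, was on the other side, at 0.23 in ΔfneΔrbp9 (SE 0.0511, adjusted p = 0.00116) and 0.24 in Δfne (SE 0.0507, adjusted p = 0.000962), with no overlap with wild type in either. Of 3 tested transcription factor genes of serotonin neuron identity (eg, tup and zfh2), edgeR and DESeq2 called 0 in each mutant, with 1 at an unadjusted p below 0.05 in each, beside the same background shares.

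Of 16 G proteins, effectors and regulators that act below serotonin and other receptors, edgeR and DESeq2 called 0 in each mutant against wild type, with 10, 7 and 5 at an unadjusted p below 0.05 in ΔfneΔrbp9, Δfne and Δrbp9. Over all tested genes 9.55%, 8.06% and 8.07% were called. In ΔfneΔrbp9, 5 of the 16 passed the adjusted p, against 24.9% of all genes: 3 higher (Gbeta13F at 0.14, Gprk1 at 0.20 and Gprk2 at 0.14) and 2 lower (Ggamma1 and Itpr, the latter at -0.21). Ggamma1, a G protein gamma subunit, averaged 1025 ± 28.0 CPM in wild type and 772 ± 14.3 in ΔfneΔrbp9, a log2 fold change of -0.41 (SE 0.0307, adjusted p = 2.43e-09, edgeR). norpA, the phospholipase C of phototransduction, was at 0.43 in Δfne (SE 0.0435, adjusted p = 1.96e-07) and at -0.40 in Δrbp9 (SE 0.0436, adjusted p = 6.7e-07). It was called in Δrbp9 against Δfne, at -0.83 (SE 0.0438, adjusted p = 2.11e-11).

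A further 5 genes either turn tryptophan into brown eye pigment or carry eye pigment precursors. Among them w, which the w1118 wild type lacks, was called higher in every mutant. Over all tested genes 9.55%, 8.06% and 8.07% were called in ΔfneΔrbp9, Δfne and Δrbp9. bw, a pigment precursor transporter, fell by 0.60 in ΔfneΔrbp9 (SE 0.0849, adjusted p = 1.44e-05, edgeR), and st, another, fell by 0.59 in Δrbp9 (SE 0.0853, adjusted p = 2.48e-05). cn, a kynurenine enzyme, was called higher in ΔfneΔrbp9 (log2 fold change 1.27, SE 0.312, adjusted p = 0.00317), from a level of only 0.508 ± 0.0825 CPM in wild type and 1.25 ± 0.543 CPM in the double mutant (SD, n = 5 each). In Δrbp9 cn averaged 1.06 ± 0.373 CPM, a log2 fold change of 1.07 that edgeR did not call (adjusted p = 0.0114). DESeq2 called cn there (adjusted p = 0.00865).

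The genes whose levels ran most like those of the 7 over the 20 libraries, by Pearson's r of log2 CPM among the other 10553 tested genes, are given as a description, since the libraries share genotypes and normalisation. For Trhn they were Csgalnact (r = 0.961) and Rlip (r = 0.929), and for SerT Csgalnact again (r = 0.946) and Pfk (r = 0.940). Csgalnact averaged 19.2 CPM in wild type, 21.1 in Δfne, 18.7 in Δrbp9 and 13.1 in ΔfneΔrbp9, the same order of levels as Trhn except for Δrbp9. Fs (r = 0.939) and CadN (r = 0.933) ran most like 5-HT7, ldd (r = 0.967) and dyw (r = 0.960) like 5-HT2A, and PAN3 (r = 0.914) and CG7110 (r = 0.901) like 5-HT2B. For 5-HT1A they were 2mit (r = 0.931) and CycG (r = 0.919), and for 5-HT1B grn (r = 0.813) and Adgf-D (r = 0.770).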

How the data were processed

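RNA from adult fly heads was sequenced as stranded, paired-end, rRNA-depleted total RNA in 20 libraries, 5 for each of 4 genotypes. The authors aligned reads with STAR to dm6 and counted them per gene with featureCounts, and deposited raw counts per gene and library, which are used here as deposited. A second deposited table holds the authors' own DESeq2 comparison (fold changes and p-values) and was not used. Tool versions are not given in the sources used here.

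Genes with a mean normalized count above 10 (10560 of 17558) were tested with edgeR 4.0.16 in R 4.3.3 (TMM, quasi-likelihood F-test, two-sided, all 20 libraries in 1 fit, Benjamini-Hochberg adjustment), and SE is the log2 fold change over the square root of F. CPM used TMM library sizes, and exonic lengths, positions and overlaps came from Ensembl release 115, which matched 17252 of the 17558 gene IDs. Length-scaled values use all annotated exons, not the isoforms expressed. Scripts were tested on simulated data. Total counts of 10289950 to 25325636 gave the least abundant gene, Trhn, 104 to 459 counts per library. Pooled over genes, replicates within a genotype all differed by more than counting noise (chi-square over degrees of freedom 5.46 to 92.1 in 40 pairs), and p-values measure the spread between these libraries. For single genes of the 7 the spread could be smaller than counting noise. The SD of 5-HT2B was below it in all 4 genotypes (2.46% of the mean against 4.42% in ΔfneΔrbp9). Trhn in Δfne (3.17% against 5.28%) and 5-HT7 in Δrbp9 (3.91% against 5.80%) were below it too.

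The 7 genes and all lists were chosen with earlier results of these data known. Named are the 7 genes, list members called against wild type, fne, Rbp9 and w as checks, and the 2 genes most like each of the 7. Vmat, Ddc, DAT, Tbh, the G proteins and effectors, the identity factors and the markers not called were named after their values were seen. Alternatives were DESeq2 1.42.0, its size factors (RLE), library totals alone, no count filter, only the groups compared, no fold change cutoff, an adjusted p below 0.05, a replicate block, and each library left out in turn.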

Additional observations from a re-analysis of the deposited data

Results flagged for a closer look

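For 4 of the 7 genes the interaction term of the edgeR quasi-likelihood fit had an adjusted p below 0.01, against 16.5% of all genes. The adjustment was Benjamini-Hochberg over 10560 genes. Only Trhn was called, against 8.97% of all genes. The term is the log2 fold change with RBP9 loss where FNE was absent minus that where FNE was present. It cannot be told apart from the difference in genetic background. It was -1.02 for Trhn (adjusted p = 6.29e-07): RBP9 loss came with a log2 fold change of 0.17 where FNE was present and of -0.86 where it was absent. It was -0.43 for SerT (adjusted p = 9.25e-05), from -0.03 with FNE to -0.45 without. The term had the opposite sign for 5-HT7, at 0.42 (adjusted p = 0.000461), from -0.58 to -0.16, and for 5-HT2B, at 0.36 (adjusted p = 3.34e-05), from -0.26 to 0.10. No library stood apart from the other 4 of its genotype in any of the 28 sets of gene and genotype examined with Dixon's criterion.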

How the results depend on the processing

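Each log2 fold change of the 7 genes was examined under 28 settings, 20 of which left out 1 library. The settings without the fold change cutoff and with an adjusted p below 0.05 moved only the threshold, so fold changes there could not differ. The library left out could also be of a genotype outside the comparison. Of 1365 values, 1336 kept their direction and their side of the threshold. Without the fold change cutoff the genes called numbered 3 in ΔfneΔrbp9, 3 in Δfne and 3 in Δrbp9 against wild type, 3 in ΔfneΔrbp9 against Δfne, 4 in ΔfneΔrbp9 against Δrbp9, 3 in Δrbp9 against Δfne and 4 for the interaction, in place of 1, 0, 1, 1, 1, 0 and 1, because smaller differences then count. Over all genes the same change raised the counts from 1008 to 2630, 851 to 2020, 852 to 2413, 720 to 2004, 492 to 1591, 862 to 2179 and 947 to 1747. The 11 values that changed sign had no adjusted p below 0.01: SerT in Δrbp9 against wild type was 0.016 with library totals alone and -0.045 to 0.019 with 1 library left out, and the ranges with 1 library left out were -0.050 to 0.028 for 5-HT1A and -0.11 to 0.0050 for 5-HT2A in ΔfneΔrbp9, and -0.046 to 0.065 for 5-HT1B and -0.029 to 0.088 for 5-HT2A in Δfne. The cause was not tested. The adjusted p alone crossed 0.01, with no change of call, for 5-HT1B in ΔfneΔrbp9 (0.00735 by DESeq2, 0.00795 with library totals alone), for 5-HT2B in Δfne (0.041 with only the groups compared) and for 5-HT1A in ΔfneΔrbp9 against Δfne (0.0136 with RLE factors, 0.011 without the count filter). Replicate numbers did not pair the libraries (30 same-number pairs, r -0.44 to 0.57, 9 above 0.1, 5 of 20 libraries closest to their own number). With the replicate block, Trhn in ΔfneΔrbp9 was at -0.57 (adjusted p = 9.43e-05, edgeR) and the number of genes called stayed at 1, 0, 1, 1, 1, 0 and 1, while the adjusted p became 0.0151 for Trhn and 0.0104 for 5-HT2B in Δfne and 0.0183 for 5-HT1A in ΔfneΔrbp9 against Δfne. The fit on only the groups compared could not be made for the interaction. Differences under about 0.1 on the log2 scale were at or near the SE of the least abundant genes and were not resolved at this depth.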
